A study of Mus musculus with 22 samples.

Results

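H3K4me3, trimethylation of lysine 4 on histone H3, was compared between synovial fibroblasts of Tg197 mice and of wild-type (WT) mice at 3 weeks of age, the age the study's design calls early. The comparison covers every region of the deposited 3-week table, 13603 of the 26201 regions in the 4 tables of the series, with 3 Tg197 and 3 WT libraries. Tg197 mice express human TNF from a transgene and become arthritic, and the WT mice lack the transgene. Both groups have the strain label CBA x C57BL/6J, both were cultured fibroblasts at passages 4 to 5, and neither received a treatment. The series also holds the same comparison at 8 and 11 weeks and WT cells of 8 weeks with and without TNF. The labels do not tell separate animals, pools or cultures apart among the 3 libraries of a group, and p-values then measure only the spread between these libraries, which may be technical. In a bulk culture, fewer cells of a type and less mark per cell cannot be told apart.

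H3K4me3 is placed around the start sites of active and poised genes by the SET1 and MLL methyltransferases, mostly on the nucleosomes just downstream of the start, and it is sparse inside gene bodies and between genes. Synovial fibroblasts line the joint and shape its matrix. TNF acts on them through its receptors and adaptor proteins, which release NF-kB, and NF-kB in turn induces its own inhibitors.

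The mark at 3 weeks was higher in Tg197 around promoters of a limited set of genes and lower across gene bodies, intergenic regions and the outer parts of many promoters. The authors' adjusted p was below 0.05 for 99.2% of the listed regions (13494 of 13603), with 9.71% higher in Tg197 (1321 regions) and 89.5% lower (12173). The table holds regions that had been picked on the same contrast, so these shares describe how the list was made and are no evidence of their own. In limma on log2 normalized counts 93.6% passed an adjusted p of 0.05 (12733), 4.68% as a rise (637) and 88.9% as a fall (12096). In 92.6% of the regions (12603) the 3 Tg197 values did not overlap the 3 WT values. The limma shares and this separation come from the same picked regions and the same libraries, so they too describe the list. Limma adjusted p-values given below do not account for the picking. Regions are said to have risen or fallen when past limma, and to be higher or lower when past the authors' adjusted p.

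The authors' scaling and 1 WT library bear on all of these counts. Each normalized count is a whole number of reads times a factor of its library, from 1.0502 to 1.2322 in WT and 0.7948, 0.5798 and 1.3579 in Tg197 a, b and c, the letters naming libraries in column order. The listed regions held 2265527 to 2524906 reads per WT library and 2457290, 2780941 and 1560963 in Tg197 a, b and c, and their median normalized count was 141.8 to 154.0 in WT and 74.8 to 105.9 in Tg197. The median log2 change of all listed regions was -0.70. It became -0.04 when each library was scaled to its median over all listed regions, and then 940 regions rose and 6 fell. It became -1.04 when libraries were scaled to regions within 1 kb of a start site, and then 3 rose and 12238 fell. The split between rises and falls is thus a statement within the authors' scaling, and changes below are also given relative to all listed regions. Without WT c no region rose or fell in limma at adjusted p 0.05 (smallest adjusted p 0.0646), while 9776 had an unadjusted p below 0.05. Leaving out WT a gave 111 rises and 8006 falls, WT b 133 and 7822, Tg197 a 286 and 10613, Tg197 b 536 and 11660, and Tg197 c 1196 and 12201.

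The largest promoter rise was at Tnfaip3, and other genes that restrain NF-kB rose with it. A promoter region lies within 3 kb of a start site in the deposited annotation, and of 3002 such regions 18.7% rose (561) and 58.3% fell (1751). By the authors' adjusted p 39.7% were higher (1193) and 58.8% lower (1764). Tnfaip3 encodes A20, a ubiquitin-editing enzyme that stops TNF receptor signalling. Its region of chr10:18732601-18735000 (mm9), centred 1414.5 bases downstream of the start, held 281.4, 374.4 and 278.5 normalized counts in WT and 629.5, 732.8 and 441.3 in Tg197. All 3 Tg197 libraries lay above all 3 WT libraries, with Tg197 c nearest to them, and the log2 change was 0.93 ± 0.22 (SE; limma adjusted p = 0.0143, which is the smallest adjusted p in the comparison). Nfkbia encodes IkBa, the inhibitor that holds NF-kB in the cytoplasm. Its region (chr12:56590601-56594400) had the highest counts of any promoter that rose, 597.5, 729.8 and 517.5 in WT and 1139.8, 1222.2 and 809.3 in Tg197, again without overlap (log2 change 0.77 ± 0.22, limma adjusted p = 0.0143). Tnip1, which encodes an A20-binding protein, held 321.4, 324.1 and 398.0 in WT and 522.2, 518.3 and 634.1 in Tg197. Here Tg197 c was the highest library, and the log2 change was 0.68 ± 0.18.

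Of the 20 genes in a list of NF-kB subunits, inhibitors and feedback genes, 12 had a listed promoter region, of which 8 rose, 2 fell and 2 did not pass. Taking 1 promoter region per gene, the one with the smallest limma p, 19% of all 2782 genes with one rose (528) and 58.6% fell (1629). In 37 of these genes promoter regions were called in both directions, so a gene counted as a fall can also hold a rise. This holds for every gene list below. The list's median log2 change was 0.49, against -0.54 for all of those genes, and 1.16 with libraries scaled to all listed regions. Besides the 3 genes above, Nfkb2 rose, the gene of the p100 precursor and p52 subunit (527.2, 606.9 and 566.8 in WT; 782.9, 878.4 and 734.6 in Tg197; log2 change 0.49 ± 0.18). Nfkbiz, which encodes an inducible nuclear IkB protein, rose by 0.54 ± 0.18. Nfkbie, which encodes IkBe, rose by 0.54 ± 0.23, but its Tg197 c value of 385.6 lay among the WT values of 371.8 to 411.6. The smaller rises were Tnip2 (0.49 ± 0.17) and N4bp1 (0.45 ± 0.18), an RNase that limits cytokine mRNA. Sod2 (0.40 ± 0.24) and Zc3h12a, another RNase that acts on cytokine transcripts (0.40 ± 0.18), did not pass. Rela, the p65 subunit itself, fell by 0.60 ± 0.17 at a region centred at -1238.5 bases, upstream of its start, and Tnfaip2 fell by 0.61 ± 0.18 at -1720.5 bases; neither fall held its sign when libraries were scaled to all listed regions (0.07 and 0.05). Without WT c no member rose; without 1 other library 4 to 10 did. With libraries scaled to regions near start sites, 2 members still rose, Tnfaip3 (0.60, limma adjusted p = 0.00949) and Nfkbia (0.44, adjusted p = 0.0327), and Ch25h was the 1 other region in the table to do so.

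Promoter sequences of 5 of the 8 risen genes are shown because the 250 bases before their starts hold letters of the NF-kB motif. They come from RefSeq (GRCm38.p6, a later build than the mm9 of the regions, so the windows were not placed on the regions), in lower case with every stretch matching the NF-kB motif on either strand in capitals. For Nfkb2 and Tnfaip3, which have 3 and 2 starts in the table, the start numbered 1 is shown; the other Tnfaip3 start has no match, and the other Nfkb2 starts have 1 matching stretch each.
Nfkbia, chr12:55492648-55492897, minus strand: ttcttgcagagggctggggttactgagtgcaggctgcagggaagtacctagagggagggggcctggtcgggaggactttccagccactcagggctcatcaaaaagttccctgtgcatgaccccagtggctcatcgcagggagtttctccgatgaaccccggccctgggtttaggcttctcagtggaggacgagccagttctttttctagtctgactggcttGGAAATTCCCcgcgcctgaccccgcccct
Nfkbie, chr17:45555450-45555699, plus strand: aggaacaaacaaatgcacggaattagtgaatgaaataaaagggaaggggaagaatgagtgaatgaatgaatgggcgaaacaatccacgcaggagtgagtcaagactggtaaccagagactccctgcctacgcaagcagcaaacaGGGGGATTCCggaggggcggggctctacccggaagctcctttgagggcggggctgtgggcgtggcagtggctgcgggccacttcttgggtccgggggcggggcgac
Nfkb2, chr19:46304487-46304736, plus strand: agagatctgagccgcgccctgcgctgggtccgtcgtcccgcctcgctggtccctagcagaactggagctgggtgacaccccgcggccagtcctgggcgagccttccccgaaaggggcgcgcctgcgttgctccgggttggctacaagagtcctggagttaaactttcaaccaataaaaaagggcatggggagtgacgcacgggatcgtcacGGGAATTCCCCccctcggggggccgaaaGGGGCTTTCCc
Tnfaip3, chr10:19015411-19015660, minus strand: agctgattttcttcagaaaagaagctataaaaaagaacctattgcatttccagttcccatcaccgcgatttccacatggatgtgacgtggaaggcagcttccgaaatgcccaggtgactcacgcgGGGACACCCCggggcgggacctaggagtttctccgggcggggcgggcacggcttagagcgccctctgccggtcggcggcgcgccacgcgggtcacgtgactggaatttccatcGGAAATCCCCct
Tnip1, chr11:54962941-54963190, minus strand: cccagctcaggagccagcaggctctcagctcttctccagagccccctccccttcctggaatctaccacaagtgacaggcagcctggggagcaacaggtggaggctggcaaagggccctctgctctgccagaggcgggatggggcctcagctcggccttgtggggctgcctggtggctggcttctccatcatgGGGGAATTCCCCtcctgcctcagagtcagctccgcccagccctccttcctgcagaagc
Nfkbia, Nfkbie and Tnip1 hold 1 matching stretch each in these windows, and Nfkb2 and Tnfaip3 hold 2 each. Nfkbiz had no entry, and Tnip2 and N4bp1 had no match. Of all 21254 promoter windows of that length, 889 (4.18%) hold the motif. A match is a stretch of letters and not a measured binding site, and the absence of a match bears only on this window. For the sets of risen and fallen genes no comparison of motifs or base composition is given, since only 78% and 77.2% of their genes had a promoter in the sequence table.

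**Figure D1:**
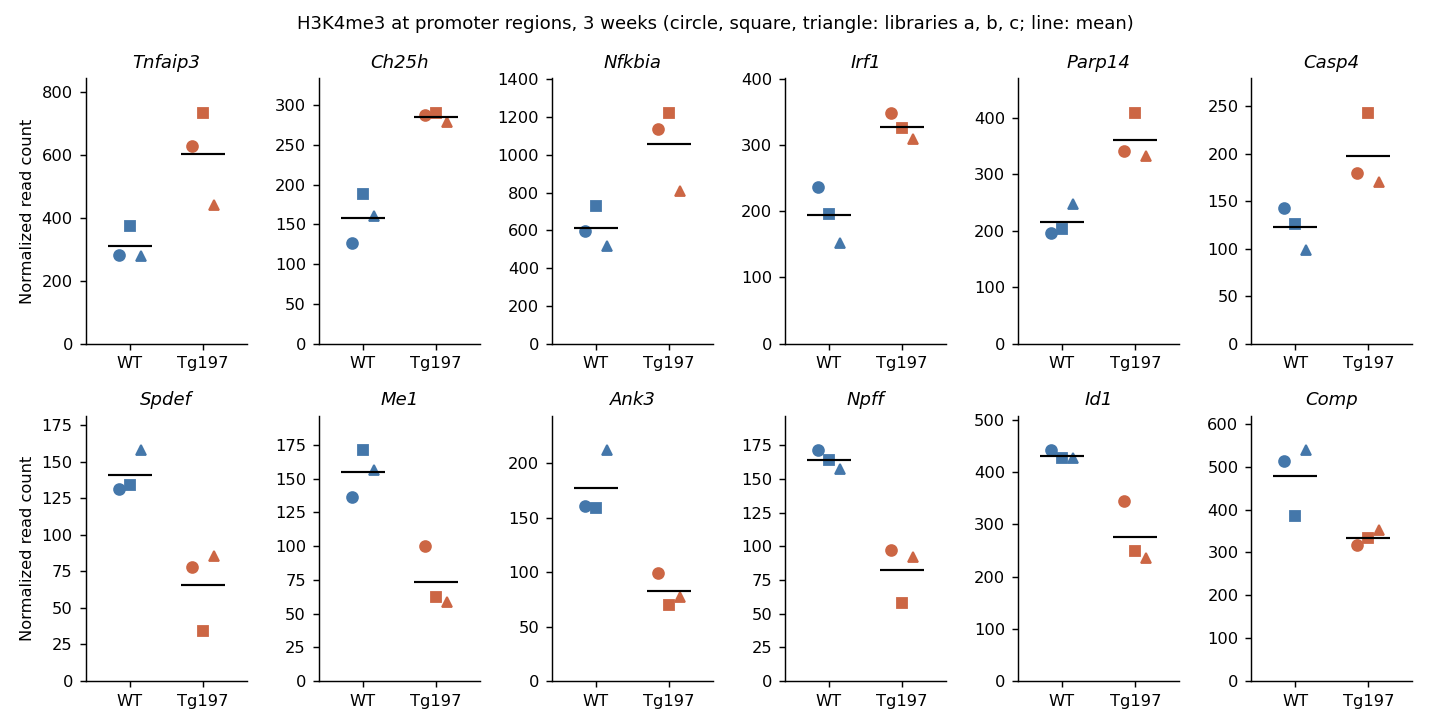
Normalized H3K4me3 read count (vertical axis) in each of the 3 WT and 3 Tg197 libraries at 6 promoter regions that rose (upper row) and 6 that fell (lower row), picked for display from the named regions. Points are libraries and the line is the group mean; the groups do not overlap in any of these 12 panels, which were picked from regions with groups apart.

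TNF receptor adaptors did not move together. Of 7 genes of that list with a listed promoter region, 2 rose, 3 fell and 2 did not pass, with a median log2 change of 0.30 (0.97 relative to all listed regions). Over all genes with such a region 19% rose and 58.6% fell. Tank, an adaptor that binds TRAF proteins and holds IKK-related kinases, had 75.6, 80.5 and 67.8 normalized counts in WT and 119.2, 119.4 and 146.6 in Tg197. Birc2, the ubiquitin ligase cIAP1 of the receptor complex, had 199.5, 202.3 and 216.9 in WT and 247.2, 319.5 and 296.0 in Tg197. Neither gene's groups overlapped, and the log2 changes were 0.78 ± 0.20 and 0.47 ± 0.17. Traf2, the adaptor that recruits Birc2, had a fallen region centred 2812.5 bases downstream of its start (170.1, 168.8 and 205.8 in WT; 106.5, 100.3 and 103.2 in Tg197; log2 change -0.80 ± 0.17). The endogenous mouse Tnf gene had no listed promoter region; its gene body region held 126.0, 131.9 and 150.3 in WT and 103.3, 71.9 and 97.8 in Tg197. It fell by 0.59 on the log2 scale within the authors' scaling (0.08 relative to all listed regions), and it is not the human transgene.

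Interferon-response genes held some of the largest rises, although the list as a whole was split. Of 8 members with a listed promoter region 3 rose, 3 fell and 2 did not pass (median log2 change 0.35; 1.02 relative to all listed regions). Over all genes with such a region 19% rose and 58.6% fell. Irf1, a transcription factor induced by interferon and TNF, had 236.3, 196.7 and 151.6 in WT and 348.9, 326.4 and 309.6 in Tg197 (log2 change 0.77 ± 0.19). Xaf1, an interferon-induced promoter of apoptosis, had 171.2, 160.9 and 187.3 in WT and 221.0, 292.8 and 332.7 in Tg197 (0.69 ± 0.19). The lowest Tg197 library exceeded the highest WT library at both genes, and Xaf1 was highest in Tg197 c. Ddx60, a helicase of antiviral sensing, rose by 0.48 ± 0.19, and Isg20, an antiviral exonuclease, fell by 0.64 ± 0.18. Outside the list, Parp14, an ADP-ribosyltransferase also induced by interferon, had 195.3, 202.3 and 246.4 in WT and 341.8, 408.2 and 332.7 in Tg197 (0.75 ± 0.18). Casp4, the inflammatory caspase that senses bacterial lipopolysaccharide, had 142.8, 126.3 and 98.6 in WT and 179.6, 242.9 and 169.7 in Tg197 (0.68 ± 0.20).

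Adhesion and antigen-presentation genes moved in both directions, and the adhesion receptors of leukocytes were among the rises. Vcam1, an adhesion receptor of activated synovial fibroblasts, had 338.2, 357.6 and 390.6 in WT and 496.8, 554.8 and 452.2 in Tg197 (log2 change 0.47 ± 0.17). Icam1, the ligand of leukocyte integrins, had 107.1, 102.8 and 94.9 in WT and 155.0, 135.7 and 153.4 in Tg197 (0.54 ± 0.17). Both were fully separated between groups. The wider adhesion and cytoskeleton list was not uniform, with 3 rises, 5 falls and 3 not passing among 11 promoter-listed members, and Itga1, a collagen-binding integrin, fell by 0.74 ± 0.19. Lpp, counted among the falls, also had a risen promoter region (log2 change 0.52). The class I genes H2-D1 (0.56 ± 0.17) and H2-K1 (0.52 ± 0.17) rose, and H2-DMa, a class II loading factor, fell by 0.66 ± 0.18 at a region upstream of its start. These 2 rises and 1 fall were all the calls among 5 antigen-presentation genes with a listed promoter region, where 19% of all promoter-listed genes rose and 58.6% fell.

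The other large rises were at genes of several kinds. Ch25h makes 25-hydroxycholesterol, an oxysterol with antiviral and immune roles. Its region (chr19:34547301-34549200) had 126.0, 187.8 and 160.2 in WT and 287.7, 289.9 and 278.4 in Tg197, with an SD of 6.1 among the Tg197 libraries. Sox11, a transcription factor of progenitor cells, had 131.3, 102.8 and 91.2 in WT and 242.4, 220.9 and 134.4 in Tg197, with Tg197 c just above the highest WT library. Gdf6, a BMP-family ligand of joint formation, had 71.4, 84.9 and 90.0 in WT and 106.5, 142.6 and 165.7 in Tg197 (0.73 ± 0.21). Slc35f1, a solute carrier, and Fmn1, a formin of limb development, rose by 0.87 ± 0.27 and 0.69 ± 0.19, and at Slc35f1 the value of 159.0 in WT c lay close below the 162.9 of Tg197 a. The Notch ligand Dll1 (0.61 ± 0.18) and the Notch target Hey1 (0.62 ± 0.19) rose, while the Hedgehog co-receptor Boc fell by 0.57 ± 0.18. Fgf9, a growth factor, was tightly grouped at 272.0, 285.0 and 303.1 in WT and 401.4, 425.0 and 425.0 in Tg197 (0.54 ± 0.16).

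Promoters with strong marks that rose included Slit2, a guidance ligand (526.1, 696.3 and 568.0 in WT; 978.4, 1051.7 and 718.3 in Tg197), and Man2a1, a Golgi mannosidase (567.1, 551.0 and 598.8 in WT; 871.1, 972.9 and 696.6 in Tg197). In both, Tg197 c was the lowest Tg197 library but still above WT. Sik1, a salt-inducible kinase, rose by 0.57 ± 0.20 and Calm3, a calmodulin gene, by 0.39 ± 0.18. Among cell-cycle genes Ccnd1 (0.56 ± 0.21) and Cdk6 (0.53 ± 0.19), which form the kinase of G1 entry, rose. Of the 10 promoter-listed members 3 rose and 6 fell, where 19% of all promoter-listed genes rose and 58.6% fell. The members that fell included the replication genes Cdc6 (-0.74 ± 0.22) and Pcna (-0.82 ± 0.24), at regions centred at 736.5 and -2735.5 bases from the start.

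Falls outnumbered rises among matrix, Wnt and BMP genes under the authors' scaling, as they did over all promoter-listed genes, of which 58.6% fell and 19% rose. That share depends on position. Of all listed regions 1 to 3 kb from a start 87.8% fell, against 33.2% from 250 bases to 1 kb and 9.07% within 250 bases. The lists were not compared at matched positions. All 6 promoter-listed genes of a list of 33 collagens and crosslinking genes fell, with a median log2 change of -0.59, which became 0.08 when libraries were scaled to all listed regions. Col6a2 is an example, with 153.3, 134.1 and 131.8 normalized counts in WT and 87.4, 77.7 and 92.3 in Tg197 at -2852.5 bases from its start. Fn1, the fibronectin gene, fell at -2506.5 bases (121.8, 135.2 and 126.9 in WT; 71.5, 67.2 and 103.2 in Tg197). The other fallen regions of this list were centred at -2082.5 (Col1a1), -1689.5 (Lox), -2377.5 (Fbn1) and -712.5 bases (Col6a1). Of 13 promoter-listed proteoglycan and matricellular genes 7 fell and 4 rose (median -0.57; 0.09 scaled to all listed regions). Lum, which encodes the collagen-binding proteoglycan lumican, fell near its start at 716.5 bases downstream (226.8, 212.4 and 189.8 in WT; 151.8, 107.8 and 119.5 in Tg197; log2 change -0.74 ± 0.18). Fmod, fibromodulin, fell by 0.69 ± 0.16. Vcan (0.54 ± 0.17), the large proteoglycan versican, and Spp1 (0.55 ± 0.19), osteopontin, rose. Among matrix proteases the aggrecanase gene Adamts4 rose, with 194.3, 173.2 and 178.7 in WT and 232.9, 250.5 and 241.7 in Tg197, without overlap.

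All 7 promoter-listed members of a list of 44 Wnt genes fell (median log2 change -0.70, and -0.04 scaled to all listed regions). Sfrp1, a secreted Wnt antagonist, had 218.4, 186.6 and 179.9 in WT and 136.7, 74.2 and 89.6 in Tg197 (log2 change -1.0 ± 0.22). Rnf43, a ligase that removes Wnt receptors, fell more (-1.32 ± 0.36) and Axin2, a Wnt feedback gene, less (-0.63 ± 0.21). The regions of Sfrp1, Rnf43 and Axin2 were centred at 1927.5, 2812.5 and -261.5 bases from the start. Those of Fzd8, Fzd7 and Lgr4 were centred at -1402.5, -1439.5 and -652.5 bases. Of 15 BMP and TGF-beta genes 10 fell and 2 rose (median -0.53; 0.13 scaled to all listed regions). The ligand gene Bmp4 had 436.9, 293.9 and 370.9 in WT and 217.8, 143.2 and 226.8 in Tg197, and its target Id1 had 442.1, 426.9 and 427.6 in WT and 345.0, 249.3 and 234.9 in Tg197. Both were separated between groups (log2 changes -0.92 ± 0.22 and -0.67 ± 0.19). Runx1, a skeletal and blood transcription factor, fell at a region 9.5 bases from its start (116.6, 116.2 and 122.0 in WT; 60.4, 48.7 and 85.6 in Tg197; -0.90 ± 0.26). The circadian list had 5 falls and no rise among 6 genes (median -0.55; 0.12 scaled to all listed regions), including Per1, a core repressor of the clock. Of the collagen, Wnt, BMP and circadian lists no member fell without WT c or when libraries were scaled to all listed regions. Without WT b 2 collagen genes fell, without WT a 4 Wnt genes, and without WT a or WT b 5 or 6 BMP and TGF-beta genes and 2 or 1 circadian genes.

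Among promoter regions with a mean of at least 100 normalized counts, groups apart and a gene symbol other than a provisional one, the 12 largest falls belonged to genes of varied roles, at log2 changes of -1.20 to -1.02. Spdef, an epithelial transcription factor, had 131.3, 134.1 and 157.7 in WT and 77.9, 34.2 and 85.6 in Tg197. Me1, the malic enzyme, had 136.5, 171.0 and 156.5 in WT and 100.2, 62.0 and 58.4 in Tg197. Ank3, an ankyrin that anchors membrane proteins, had 160.7, 158.7 and 211.9 in WT and 99.4, 70.2 and 77.4 in Tg197. Every WT library exceeded every Tg197 library in these genes, and the lowest library was Tg197 b at Spdef and Ank3 and Tg197 c at Me1. The others were Vmn1r-ps4, Ippk, Vamp1, Ostb, Wdr19, Npff, Ermp1, Tmem214 and Srgn. The one promoter fall that passed limma with libraries scaled to all listed regions was Hsh2d, an adaptor of lymphocyte signalling (-0.71, adjusted p = 0.035; 133.4, 112.9 and 165.1 in WT; 58.0, 42.9 and 55.7 in Tg197). The gene body regions of Fam13c (-0.80, adjusted p = 0.0335) and Galnt2 (-0.59, adjusted p = 0.0331), a mucin-type glycosyltransferase, and 3 intergenic regions completed those 6 falls.

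**Figure D2:**
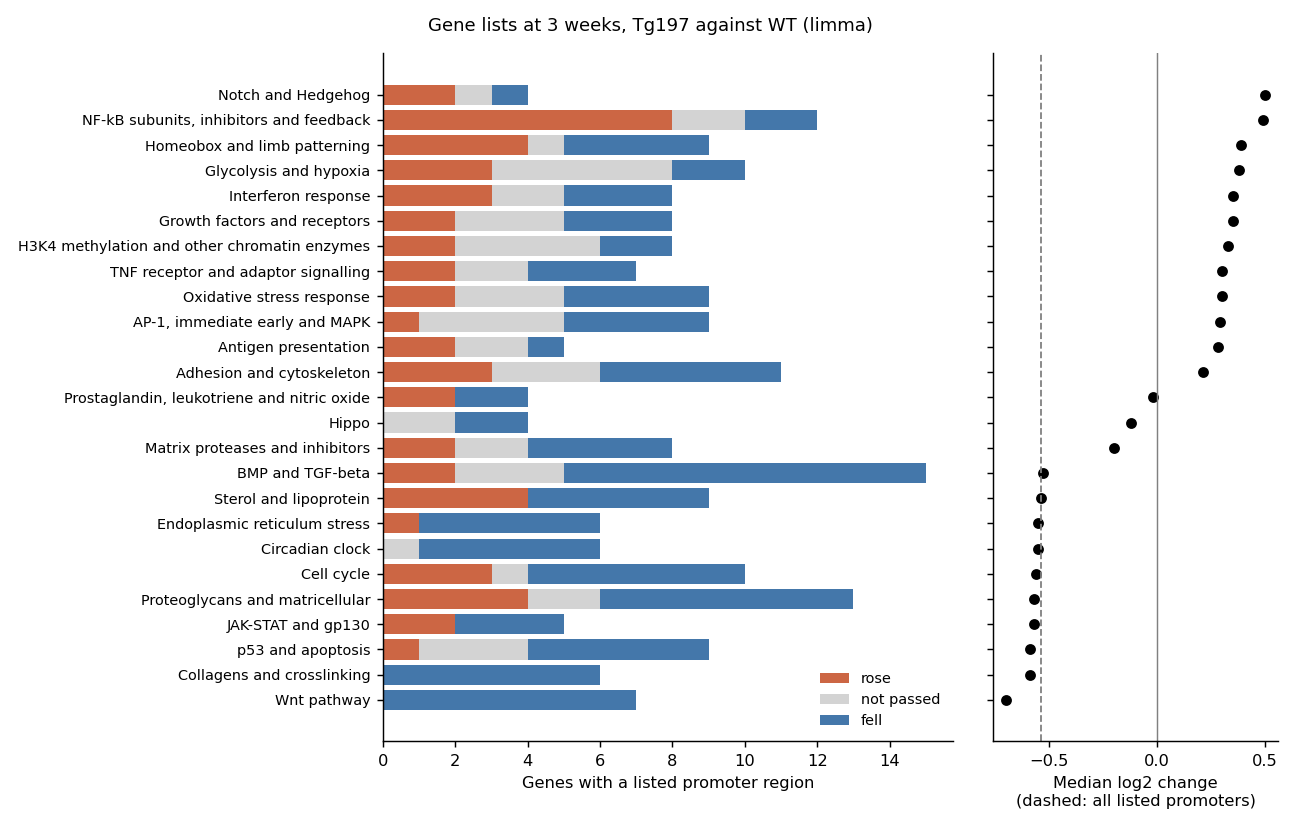
For each pathway list with at least 4 such genes, the number of genes whose promoter region rose, fell or did not pass limma (left, horizontal axis in genes) and the list's median log2 change (right), with the dashed line at the median over all 2782 genes with a listed promoter region, -0.54. NF-kB genes hold 8 rises of 12 and a median of 0.49, and the Wnt and collagen lists hold falls only, none of which remains when libraries are scaled to all listed regions.

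Position relative to the start site separated the directions. Within 250 bases of a start 407 regions were higher and 45 lower. The median log2 change was 0.35 at 500 to 250 bases upstream, 0.40 just upstream of the start and 0.33 at 750 to 1000 bases downstream. It was -0.58 from 750 to 500 bases upstream and -0.52 from 1000 to 1250 bases downstream. The positive stretch was thus longer downstream of the start than upstream, and 78.7% of the higher promoter regions (939) were centred downstream, compared with 51.3% of the lower ones (905). Beyond 1 kb, 162 higher regions lay downstream and 15 upstream, among them Tnfaip3, Nfkbia, Ch25h and Irf1, all centred 1126.5 to 1414.5 bases downstream.

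**Figure D3:**
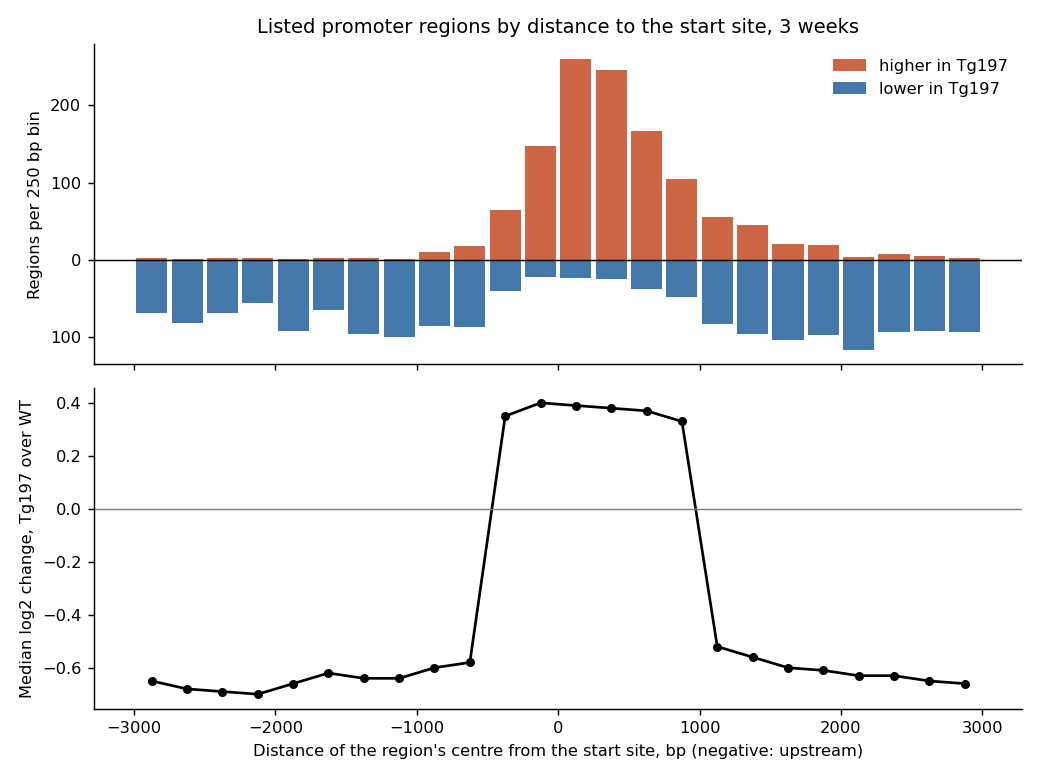
Number of higher and lower regions and the median log2 change in bins of 250 bases by distance from the region's centre to the annotated start site (horizontal axis, bases; negative is upstream). Higher regions are concentrated from 500 bases upstream to 1000 bases downstream, where the bin medians are above 0, and all other bin medians are below 0.

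Gene body regions, 6357 of the list, had 59 higher and 6256 lower members and a median log2 change of -0.73. Over all listed regions 9.71% were higher and 89.5% lower, with a median of -0.70. That median became -0.04 when libraries were scaled to all listed regions, and then 6 regions fell. For gene body regions it was -0.70 within 10 kb of the start, -0.74 at 10 to 50 kb and -0.77 beyond 50 kb under the authors' scaling. Intergenic regions (4094) had 66 higher and 4006 lower members with a median of -0.75, and the 117 regions in gene deserts a median of -0.91. In gene bodies the largest rises were Fam129b, with 120.8, 92.8 and 92.4 in WT and 163.7, 143.2 and 213.2 in Tg197 (0.75 ± 0.20), and Usp25, a deubiquitinase, whose Tg197 b value of 77.1 lay within the WT range. Mthfd1, an enzyme of folate metabolism, had a gene body region with 105.0, 130.8 and 142.9 in WT and 41.3, 18.6 and 81.5 in Tg197 (-1.64 ± 0.48). The signals in these places were low in both groups: lower regions away from promoters had library medians of 136.4 to 147.9 in WT and 69.6 to 100.5 in Tg197, against 234.1 to 241.4 and 263.4 to 355.4 for higher promoter regions.

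Within the authors' scaling, changes in opposite directions also occurred within the same gene. A library's scaling factor cancels in the ratio of a gene's risen to its fallen region, but not in the direction of either region. Counting every promoter region of a gene, 557 genes had a risen one. Of these, 110 (19.7%) had a fallen region too, 84 of them in the gene body and 26 in the promoter classes. The ratio of the risen to the fallen region had library medians of 1.59, 1.54 and 1.34 in WT and 3.25, 5.04 and 3.01 in Tg197; these genes were chosen for the opposite directions, so the separation is a description. Mast4, a microtubule-associated kinase gene, had 171.2, 157.6 and 163.9 at its promoter in WT and 201.1, 216.8 and 226.8 in Tg197. At a gene body region 366170.5 bases from the start it had 107.1, 108.4 and 133.1 in WT and 47.7, 31.3 and 57.0 in Tg197. Itpr3, an inositol trisphosphate receptor gene, had promoter values of 224.7, 188.9 and 237.8 in WT and 348.9, 331.1 and 262.1 in Tg197. Its gene body region held 108.2, 116.2 and 157.7 in WT and 73.1, 38.8 and 72.0 in Tg197. At Thsd7a and Zmat5 the gene body region was above the promoter region in every WT library (ratio of promoter to gene body 0.48 to 0.69 and 0.75 to 0.89) and below it in every Tg197 library (1.37 to 2.68 and 1.54 to 3.26).

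**Figure D4:**
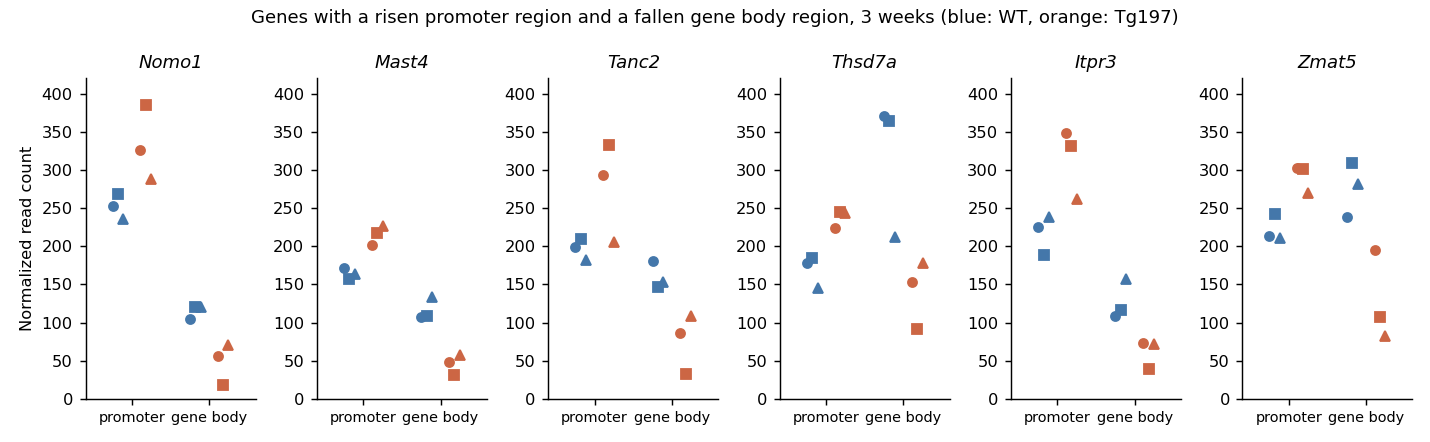
Normalized read count (vertical axis) at the risen promoter region and the fallen gene body region of 6 genes with the largest difference between them; points are the 3 WT and 3 Tg197 libraries. In Tg197 the promoter values are raised and the gene body values lowered in the same libraries, and 1 Tg197 promoter value, that of Tanc2 in Tg197 c (205.0), lies among the WT values.

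The contrast between higher promoters and lower regions elsewhere differed among the Tg197 libraries. These regions were chosen by direction, so a larger ratio in Tg197 than in WT follows from the choice, and the values serve to set the libraries of a group beside each other. The ratio of the median higher promoter region to the median lower region elsewhere was 1.73, 1.77 and 1.58 in WT and 3.45, 5.11 and 2.62 in Tg197 a, b and c. All promoter regions, higher and lower, held 22.1% to 22.6% of the listed reads in WT and 31.9%, 39.7% and 25.8% in Tg197. Tg197 b was the highest of the 6 libraries at 72.6% of the higher regions and the lowest at 83.4% of the lower ones, and WT c was the highest at 60.4% of the lower ones. Tg197 c was the lowest of all 6 at 19.3% of the higher regions. At the 331 higher regions with the smallest log2 changes Tg197 c was the highest library in 3.63% and the lowest in 42.9%, and at the 330 with the largest it was the highest in 40% and the lowest in 0.606%; the ranking uses the Tg197 c value itself, so a difference of this kind is partly built in. Replicates also differed more in Tg197, with a mean chi-square of 6.2 to 15.94 per region between pairs of libraries, against 1.27 to 2.32 in WT. The share of signal at promoters moves with the rises and falls above, and its part in them was not tested.

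**Figure D5:**
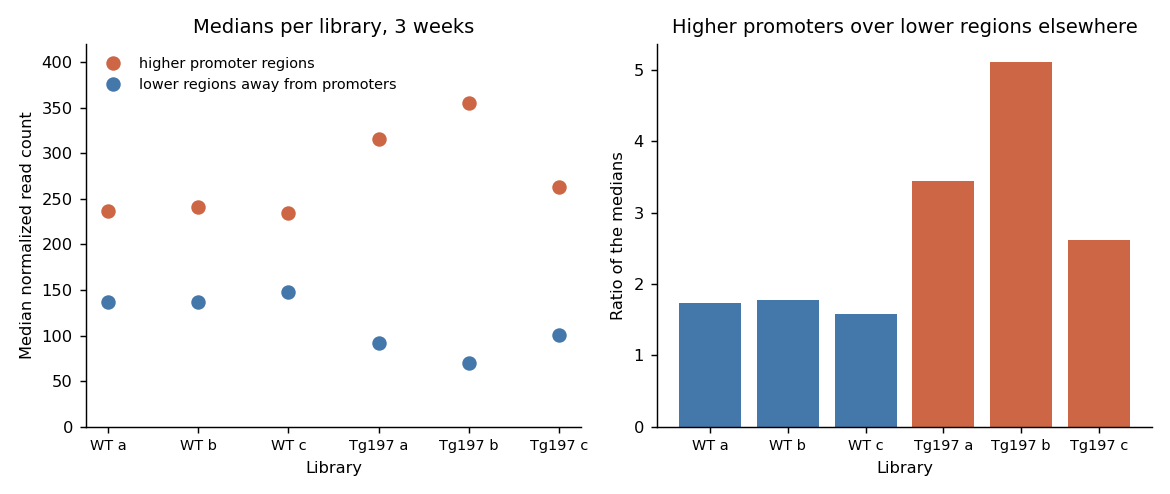
Median normalized read count of higher promoter regions and of lower regions away from promoters (left) and the ratio of these medians (right) in each library (horizontal axis, the 3 WT and 3 Tg197 libraries). The regions were chosen by direction, which fixes the order of the groups; the ratio is 1.58 to 1.77 in WT and 2.62 to 5.11 in Tg197, and Tg197 c is nearest to WT.

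The size of the changes was limited on the side of the rises. No higher region reached a limma log2 change of 1 in size, whereas 943 lower regions (7.7%) did. The median fold of the means among higher promoter regions was 1.34. The authors' own enrichment columns, 1 value per group without replicates, gave a larger change at higher regions and a smaller one at lower regions. Median enrichment at higher promoter regions was 3.89 in WT and 7.91 in Tg197, and at lower regions away from promoters 2.49 and 2.07. The median log2 enrichment ratio was 1.03 at higher regions, where the authors' median log2 change was 0.43. At lower regions these medians were -0.23 and -0.7. The log2 ratio of these enrichments exceeded the authors' log2 change by a median of 0.48, and by 0.19 to 0.73 across regions. By this measure 402 of the 12173 lower regions (3.3%) were more enriched in Tg197 than in WT, and Comp, a cartilage matrix gene with 1 of the highest counts among fallen promoters (514.6, 384.5 and 538.5 in WT; 316.3, 334.0 and 353.0 in Tg197), had an enrichment of 5.82 in WT and 5.86 in Tg197.

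Chromosomes were not represented evenly. Chromosome 11 held 2447 of the listed regions (18%), compared with 10.1% of the list at 8 weeks and 12.9% at 11 weeks, and it held 19.2% of the lower regions and 7.3% of the higher ones. Of 91 listed regions on chromosome X, 70 were lower and 21 higher. Of its 20 promoter regions 19 were higher and 16 rose, against 39.7% and 18.7% of all promoter regions. The median log2 change of those 19 was 0.53, against 0.40 for 1174 higher promoter regions on autosomes, and their counts were smaller (library medians of 140.7 to 150.3 in WT and 165.7 to 220.3 in Tg197). The chromatin regulator Kdm5c, an H3K4 demethylase on chromosome X, had 256.2, 261.5 and 321.6 in WT and 379.1, 440.6 and 392.4 in Tg197 (0.53 ± 0.17). Mll1, an H3K4 methyltransferase, also rose (0.50 ± 0.17). Of the 8 promoter-listed chromatin enzymes 2 rose, 2 fell and 4 did not pass, where 19% of all promoter-listed genes rose and 58.6% fell. The enzymes that fell were Ezh1, a subunit of the H3K27 methyltransferase, and Kdm2b, a demethylase. The fallen region of Kdm2b was centred 1540.5 bases downstream of a start (-0.52 ± 0.18), and another promoter region of this gene rose (0.37). The labels give no sex of the mice. Both listed regions of chromosome Y fell, but the WT libraries disagreed there (1684.5, 1353.5 and 538.5 at the stronger region; 534.1, 241.2 and 623.3 in Tg197). The authors' enrichment at the stronger region was only 0.68 in WT and 0.34 in Tg197.

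The longest regions had very high counts, and in 4 of the 5 longest Tg197 c stayed at the WT level. The authors' enrichment values there were low, 0.42 to 1.31 in WT and 0.32 to 1.06 in Tg197. Higher promoter regions had medians of 3.89 and 7.91, so the high counts are not a sign of strong enrichment. At Sfi1 (chr11:3085701-3092700) the WT values were 11528.7, 11853.6 and 11484.2 and the Tg197 values 7540.5, 4483.4 and 11733.5, and the difference did not pass limma (adjusted p = 0.243). Itln1 showed the same order, with 630.3, 342.6 and 1074.1 in Tg197 against 1019.3 to 1081.9 in WT.

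The labelled cell type was checked on marker genes. Of 14 synovial fibroblast markers 5 had a listed promoter region, among them Pdpn and Vcam1, which rose, and Lum and Col6a1, which fell; their summed counts were 1270.7 to 1327.1 in WT and 1309.0 to 1673.8 in Tg197. The leukocyte marker Itgam, an integrin of myeloid cells, fell (125.0, 114.0 and 129.4 in WT; 93.8, 53.9 and 92.3 in Tg197). Its log2 change was 0.01 with libraries scaled to all listed regions. Endothelial markers had 3 of 13 (331.9 to 486.7 and 331.6 to 391.0), of which Flt1 rose (log2 change 0.59 ± 0.21) and Eng and Tek fell. Muscle, cartilage, and epithelial lists had 1 each, all fallen. Over all promoter-listed genes 58.6% fell and 19% rose. The table lists only changed regions, so a marker without an entry is not shown to be absent. The part of other cell types in the results was not tested.

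A minority of the listed regions overlapped a region called in the same direction at the other ages. Of the 1321 regions higher at 3 weeks, 57 overlapped a region higher at 8 weeks (4.31%; 9.66% of the 590 there) and 118 one higher at 11 weeks (8.93%; 6.01% of 1965). Of the 12173 lower regions 282 (2.32%) and 444 (3.65%) were lower again. The ages use different libraries, and the later lists held 2923 regions at 8 weeks and 6593 at 11 weeks. A region without an overlap there is not shown to be unchanged at that age. Of the 557 genes with any risen promoter region, 33 were also higher at 8 weeks and 57 at 11 weeks. At both later ages 13 were higher: Tnfaip3, Ninl, Tnip1, Nfkbia, Dusp6, Slit2, Lrig1, Osbpl5, Zdhhc12, Ccnd1, Hivep2, Sbno2 and Nfkbie. Osbpl5 rose at 3 weeks in a region centred at 2866.5 bases, while its region at -283.5 bases fell by 0.45. At 3 weeks Dusp6, a phosphatase that limits ERK signalling, had 161.7, 228.0 and 221.8 in WT and 279.8, 325.8 and 347.6 in Tg197. Ninl, a centrosomal protein gene, had 321.4, 283.9 and 297.0 in WT and 458.6, 518.3 and 471.2 in Tg197 (log2 change 0.68 ± 0.17). Lrig1, a feedback inhibitor of growth factor receptors, had 310.8, 382.2 and 295.7 in WT and 490.4, 688.2 and 384.3 in Tg197, where Tg197 c exceeded the highest WT library only slightly.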

How the data were processed

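H3K4me3 ChIP-seq used sonicated chromatin, a Diagenode kit and antibody and paired-end Illumina sequencing, per the labels' protocols. Reads were placed on mm9, and BWA, TopHat, TopHat2, Cufflinks and Cuffdiff are listed without roles or versions, per the submitters' processing notes. No source used here names the region caller or the normalization. The authors deposited, per region, 3 normalized counts for each group, their mean signal, an enrichment ratio per group, a log2 change, p-values with adjusted p-values, and a position, length and distance in bases. Each normalized count equalled whole reads times 1 factor per library, within a tolerance of 0.02, for 100.0% of values. The largest p of a region's best window was 0.0001, so the list was made by a selection on this contrast.

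From these values log2(normalized count + 0.5) was compared between 3 Tg197 and 3 WT libraries over all 13603 regions with limma 3.58.1 (R 4.3.3), a mean-variance trend and Benjamini-Hochberg adjustment over all regions. Fold changes are on that scale, except folds of means. The script was tested on simulated data. Alternatives were a pseudocount of 5, a mean of at least 50, 2 scalings, voom on recovered reads, an adjusted p of 0.01 and leaving out each library. Libraries are named a, b and c in column order, since the columns carry no replicate number; the letters pair nothing.

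The genes named were the 12 largest promoter rises and 12 largest falls (past both tests, mean of at least 100, groups apart, symbols of the form Rik, Gm, LOC, Mir or Snor left out), the 6 strongest promoters each way, the 2 largest changes each way per annotation class, 6 genes changed in opposite directions, the 5 longest regions, up to 6 called genes per list and 8 genes higher at all ages. Others, such as Nfkbie, Tnip2, N4bp1, Sod2, Zc3h12a, Vcan, Spp1, Tnf, Galnt2, Fam13c and Leng9, were chosen after their values were seen. The members and gene lists were chosen with earlier results of these data known. Some items are not reported here.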

Additional observations from a re-analysis of the deposited data

Results flagged for a closer look

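Some regions at 3 weeks overlapped a region that went the other way at a later age, with Tg197 and WT libraries apart at both ages. Overlapping regions need not cover the same bases. Of the regions higher at 3 weeks, 10 overlapped a lower region at 8 weeks and 14 one at 11 weeks. Of the regions lower at 3 weeks, 13 overlapped a higher region at 8 weeks and 115 one at 11 weeks. The difference between ages was not tested, the ages use different libraries, and the authors' scaling bears on each direction.

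Ndel1, which encodes a partner of dynein, is an example at 8 weeks. Its upstream promoter region (chr11:68666601-68669000) fell at 3 weeks from 403.3, 404.6 and 428.8 normalized counts in WT to 294.1, 268.4 and 309.6 in Tg197 (log2 change -0.51 ± 0.16). The region listed at 8 weeks (chr11:68666101-68667400) overlaps it only in part. There the authors' log2 change was 0.59 (250.0, 237.2 and 281.2 in WT; 417.9, 389.7 and 346.9 in Tg197). The same bases are thus not shown to have reversed. Leng9 showed the other order. Its promoter was higher at 3 weeks in the authors' test but did not pass limma (248.9, 230.2 and 260.0 in WT; 302.8, 448.8 and 263.4 in Tg197). The authors' log2 change of the overlapping region was -0.47 at 8 weeks and -0.37 at 11 weeks.

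In the table of WT cells of 8 weeks with and without TNF, which the comparisons above do not use, 134 of the regions higher in Tg197 at 3 weeks overlapped a region higher after TNF.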

How the results depend on the processing

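The 111 named regions kept their direction and their side of the limma threshold under a pseudocount of 5 and a mean of at least 50, and 106 did with voom. Scaled to all listed regions, 940 rose and 6 fell (99.4% of calls were rises, against 5.00% with voom and 0.0245% scaled to regions within 1 kb of a start site, where 3 rose), and the median log2 change was -0.04, against -1.04 with the latter. Scaled to all listed regions, 15 falls changed sign: Col6a1 (0.07), Ndel1 (0.16), Per1 (0.12), Ezh1 (0.14), Kdm2b (0.15), Axin2 (0.03), Tnfaip2 (0.05), Boc (0.10), H2-DMa (0.01), Tnf (0.08), Rela (0.07), Id1 (0.00), Isg20 (0.03), Itgam (0.01) and Comp (0.17). At an adjusted p of 0.01 limma called 0 rises and 0 falls, with 12783 unadjusted p below 0.05 in the regions of a mean of at least 50. Leaving out 1 library gave 0 to 1196 rises and 0 to 12201 falls, the 0 without WT c, where none of the 106 called named regions passed; the cause was not tested. The share at promoters was 90.3% of higher and 14.5% of lower regions. It was 76.9% and 3.0% within 1 kb of a start site, by construction of the narrower definition, and 88.1% of the regions that rose in limma. Requiring an overlap of at least 50% of the shorter region left 14 of 24 regions higher at 3 weeks and lower at 11 weeks, 71 of 128 lower then higher, and at 8 weeks 10 of 24 and 8 of 21. No paired analysis was possible because the columns carry no replicate numbers. The edgeR and DESeq2 alternatives were not run, since the deposited values are normalized. A region that did not pass is not shown to be unchanged.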

Other observations

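The regions higher at 3 weeks were set beside those of TNF-treated WT cells of 8 weeks after the values had been seen. No library is shared between the 2 tables. The 134 shared higher regions were 10.1% of the 1321 higher at 3 weeks and 17.3% of the 757 higher after TNF, and 46 higher regions (3.48%) were lower after TNF. Of the 12173 lower regions, 318 (2.61%) were lower after TNF and 9 (0.0739%) were higher.

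Of the 8 risen genes of the NF-kB list, Tnfaip3, Nfkbia, Tnip1, Nfkb2 and Nfkbie were among the shared promoters. Tnfaip3 had 495.7 ± 45.9 normalized counts without and 908.4 ± 137.4 with TNF (SD, n = 3 each), Nfkbia 453.4 ± 12.1 and 856.5 ± 100.1, and Ch25h 322.2 ± 69.8 and 597.6 ± 60.9. Parp14 (286.1 ± 32.6 and 432.2 ± 1.6), Irf1 (348.9 ± 38.4 and 520.0 ± 123.4) and Casp4 (129.6 ± 18.9 and 222.9 ± 22.5) were also higher, and the 3 values with TNF lay above the 3 without in each of these genes. The surface genes Icam1 (205.6 ± 31.1 and 312.8 ± 26.6), H2-K1 (230.8 ± 17.6 and 321.5 ± 71.8) and Pdpn (307.7 ± 26.8 and 465.5 ± 93.4) followed the same order. Aldh1a2, the retinoic acid-making enzyme, rose at 3 weeks (196.4, 210.1 and 195.9 in WT; 295.7, 333.4 and 305.5 in Tg197) and had 157.4 ± 29.9 without and 231.2 ± 10.6 with TNF.

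Further gene families are given beside all promoter-listed genes, of which 58.6% fell and 19% rose. Of 53 solute carrier genes with a listed promoter region 32 fell and 8 rose, with a median log2 change of -0.57 (0.09 scaled to all listed regions). Slc1a3, a glutamate transporter, had 379.1, 338.6 and 272.3 in WT and 203.5, 150.2 and 203.7 in Tg197 (-0.83 ± 0.19). Of 54 zinc finger protein genes 23 fell and 14 rose (median 0.31; 0.98 scaled to all listed regions). Of 6 replication-dependent histone genes 5 fell and 1 rose (median -0.59; 0.08 scaled to all listed regions). In the oxidative stress list Gpx3, a secreted glutathione peroxidase, fell near its start (167.0, 173.2 and 229.2 in WT; 96.2, 98.6 and 112.7 in Tg197; -0.87 ± 0.19), and Srxn1, sulfiredoxin, rose (197.4, 205.6 and 200.8 in WT; 289.3, 324.7 and 230.8 in Tg197; 0.47 ± 0.18).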
